A study of Mus musculus with 32 samples.

Results

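The interleukin-1 (IL-1) family ligands were followed in mouse epidermis by RNA sequencing. The 9 genes were chosen by symbol among the 55401 gene identifiers of the count files: Il1a, Il1b, Il1rn, Il18, Il33 and the IL-36 genes Il1f5, Il1f6, Il1f8 and Il1f9, which are also named Il36rn, Il36a, Il36b and Il36g. All 9 passed the filter on low counts, as did 15546 genes in all. The samples were the epidermis of 32 mice of a hairless background bred from SKH-1 and Sv129/C57BL6/J mice, aged 10 to 14 weeks. WT mice were the wild type for Ppard, which encodes the nuclear receptor PPARβ/δ, and KO mice were labelled Ppard-/-. In each genotype, 4 males and 4 females were handled without irradiation (Control) and 4 males and 4 females were irradiated once with UV at 120 mJ/cm2 and taken 24 h later. Each library came from 1 mouse, so a genotype and treatment held 8 mice. The comparisons asked how UV changed these genes in each genotype, and whether the response differed between genotypes or sexes.

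IL-1 family cytokines alert tissue to damage. IL-1α and IL-1β act through the IL-1 receptor and are blocked by the receptor antagonist encoded by Il1rn. The IL-36 agonists of Il1f6, Il1f8 and Il1f9 act through a receptor of their own and are blocked by the product of Il1f5, while IL-18 is neutralized in solution by the IL-18 binding protein of Il18bp. IL-1β and IL-18 are made as precursors that caspase-1 cleaves in inflammasomes. Keratinocytes store IL-1α and IL-33, which are released when cells are damaged.

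Gene expression is given in cpm, the reads of a gene relative to the TMM-scaled size of its library. Gene reads numbered 22919428 to 40653581 in a mouse, with a median of 27600228. The sum of 7 keratinocyte markers was 74316 to 116226 cpm without UV over both genotypes, and 31760 to 62963 cpm after UV. Ppard checked the genotype label. It gave 87.3 to 104.9 cpm in WT and 70.3 to 88.9 cpm in KO Control mice, which overlapped, and 252 to 325.9 cpm in WT and 174.6 to 238.7 cpm in KO mice after UV, which did not. The genotype difference of Ppard was -0.26 on the log2 scale without UV (SE 0.0678, adjusted p = 0.156) and -0.42 after UV (SE 0.0676, adjusted p = 0.00114). Ppard reads thus remained in the mice labelled KO, and counts over a whole gene do not show on which exons the reads lay. The female KO mouse 54F stood apart after UV, with a mean correlation of 0.897 with the other mice of its group, against 0.938 or more for those mice. Its 6 fibroblast markers summed to 1982 cpm, where the other 7 KO mice after UV had 6 to 30 cpm. Values without it, a choice made after seeing the data, are given for the members and for each marker or pathway list whose count of calls changed.

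Levels of different genes were compared in cpm per kb of exon sequence. The length was that of all annotated exons of a gene together, such as 5535 bases for Il1rn and 883 for Il1f6. It need not be the length of the transcript made. In WT Control epidermis the most abundant member was Il1f5, the IL-36 receptor antagonist, with 229.6 ± 27.6 cpm per kb (SD, n = 8). Il1f9 followed with 173.2 ± 28.1, Il18 with 145 ± 28.3, Il1f8 with 138.8 ± 14.1 and Il1f6 with 100.5 ± 7.78 cpm per kb. Il1rn reached 48.1 ± 4.0, Il1a 25.8 ± 3.52, Il33 16.3 ± 4.39 and Il1b 1.07 ± 0.504 cpm per kb. The neighbours Il1f5 and Il1f9, Il1f9 and Il18, Il18 and Il1f8, and Il1a and Il33 overlapped between mice in this order. The other neighbours did not overlap. Il1b was thus the rarest of the 9 genes in the unexposed epidermis, with 25 to 86 reads per WT mouse, and per kb the IL-36 genes were among the most abundant. The order depends on length. By mean cpm Il1rn, at 266, stood above Il1f8 at 169, Il18 at 149.5 and Il1f6 at 88.8. Of the members, 5 lie on chromosome 2 close together (GRCm38): Il1f8 at 24153161 to 24160519, Il1f9 at 24186476 to 24193568, Il1f6 at 24215418 to 24225702, Il1f5 at 24276954 to 24283426 and Il1rn at 24336853 to 24351494. Il1a at 129299610 to 129309972 and Il1b at 129364570 to 129371139 lie elsewhere on the same chromosome, Il18 on chromosome 9 at 50554827 to 50581840 and Il33 on chromosome 19 at 29925114 to 29960718.

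UV raised Il1b in both genotypes, lowered Il18 in both, and left the receptor antagonist gene Il1rn without a detected change. In WT epidermis 3 of the 9 members rose, namely Il1b, Il33 and Il1f9, and 3 fell, namely Il18, Il1f6 and Il1f5, at an adjusted p under 0.05 (quasi-likelihood test of edgeR, Benjamini-Hochberg over all genes). Of all genes tested, 34.5% rose and 36.5% fell in WT epidermis, so these counts are close to the share of all genes. In KO epidermis 2 members rose, Il1b and Il33, and 5 fell, Il18, Il1f6, Il1f5, Il1a and Il1f8, where 37.3% of all genes rose and 33.5% fell. The median log2 fold change of the 9 members was 0.14 in WT, where that of all genes was -0.01, and -0.34 in KO epidermis, where that of all genes was 0.09. Without mouse 54F the counts in KO epidermis were again 2 and 5. The log2 fold changes in KO epidermis were then 1.39 for Il33, -1.42 for Il18, -0.98 for Il1f6, -0.70 for Il1f5, -0.32 for Il1a (adjusted p = 0.0264), -0.04 for Il1rn and 0.05 for Il1f9.

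**Figure D1:**
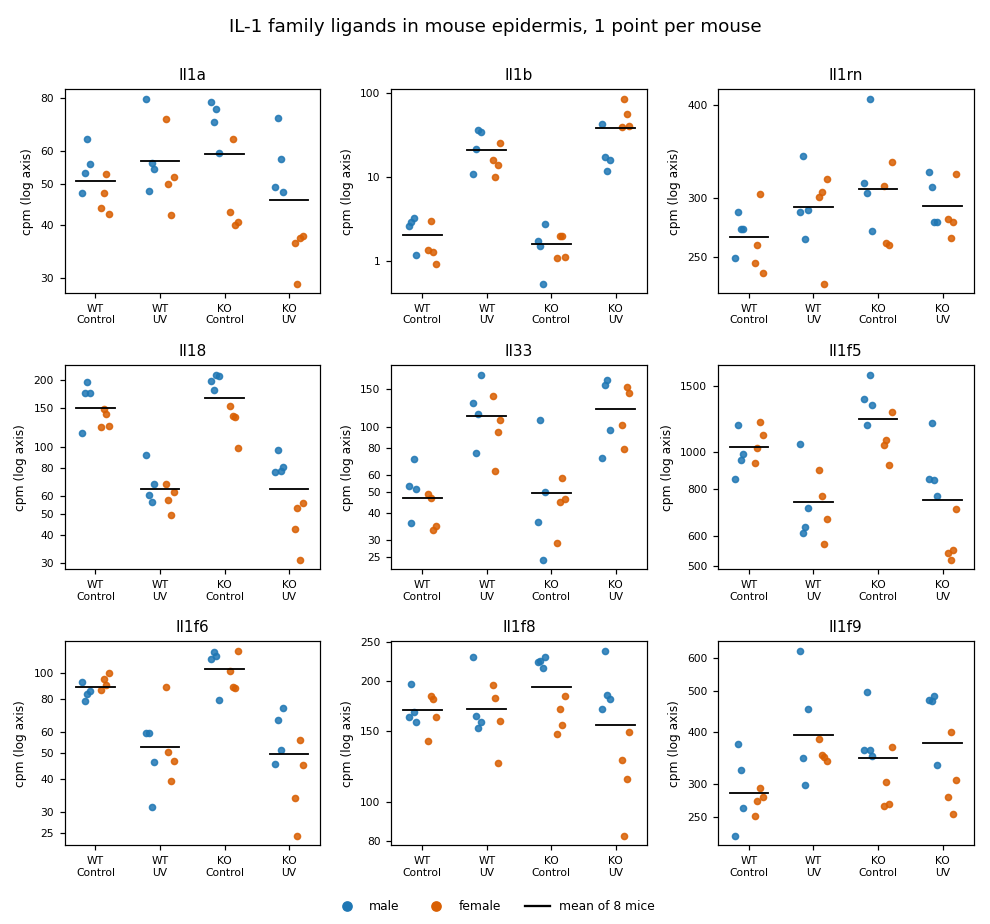
Expression of the 9 IL-1 family ligands in cpm on log axes, with 1 point per mouse, males in blue, females in orange, and black bars for the mean of 8 mice. The position of points within a sex has no meaning. Il1b lay between 0.528 and 3.23 cpm in all Control mice and between 9.97 and 86.3 cpm in all mice after UV, while Il1rn lay between 230.2 and 407.7 cpm throughout.

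Il1b encodes IL-1β, the form made mainly on stimulation. In WT male Control mice it had 2.59, 2.91, 3.23 and 1.18 cpm, and in WT males after UV 10.8, 21.5, 36.2 and 34.4 cpm. WT females had 1.33, 2.97, 1.26 and 0.913 cpm without UV and 15.9, 9.97, 13.8 and 25.4 cpm after it. No mouse after UV was within the Control range in either sex. The log2 fold change in WT epidermis was 3.36 (SE 0.351, adjusted p = 2.04e-09), a 10.2-fold rise. In KO males Il1b went from 1.72, 1.49, 0.528 and 2.76 cpm to 42.96, 17.5, 11.9 and 15.8 cpm, and in KO females from 1.08, 1.96, 1.95 and 1.10 cpm to 39.0, 86.3, 55.9 and 40.0 cpm. The 4 KO females after UV thus held all but 1 of the 5 highest values of the series, the other being KO male 58M. The log2 fold change in KO epidermis was 4.46 (SE 0.368, adjusted p = 2.07e-11), a 22-fold rise, and 4.32 without mouse 54F, which had the highest value. In both genotypes the ranges of Il1b in 8 Control and 8 UV mice did not overlap, which also held for 43.4% of all genes in WT and 35.1% in KO epidermis.

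Il1a encodes IL-1α, which acts on the same receptor without needing caspase-1. It had 42.5 to 63.8 cpm (median 50.3) in WT Control mice and 42.3 to 79.7 cpm (median 53.3) after UV. The ranges largely coincided, with a log2 fold change of 0.16 (SE 0.12, adjusted p = 0.239). In KO mice it had 40.1 to 78.0 cpm (median 61.5) without UV and 29.1 to 71.8 cpm (median 42.8) after UV, with a log2 fold change of -0.37 (SE 0.12, adjusted p = 0.00755). KO males went from 59.2 to 78.0 cpm to 47.9 to 71.8 cpm, with overlap (adjusted p = 0.103), and KO females from 40.1 to 63.9 cpm to 29.1 to 37.7 cpm, without overlap (log2 -0.42, adjusted p = 0.035).

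Il1rn encodes the IL-1 receptor antagonist. It had 238.3 to 303.3 cpm (median 266.1) in WT Control mice and 230.2 to 341.4 cpm (median 295.2) after UV, with a log2 fold change of 0.14 (95% interval -0.04 to 0.31, adjusted p = 0.148). In KO mice it had 259.2 to 407.7 cpm (median 307.9) without UV and 265 to 324.6 cpm (median 279.8) after UV, with a log2 fold change of -0.07 (95% interval -0.24 to 0.10, adjusted p = 0.435). Both intervals exclude a change as large as that of Il1b. Without the WT female 59F after UV, the value in WT epidermis was 0.23 and passed the threshold.

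Il18 encodes IL-18, a partner of IL-12 in the activation of lymphocytes. In WT Control mice it had 115.3 to 194.8 cpm (median 144.7), and after UV 49.3 to 91.9 cpm (median 61.9). The groups did not overlap, and the log2 fold change was -1.21 (SE 0.123, adjusted p = 1.04e-09), a 2.32-fold fall. In KO mice it went from 99.0 to 211.2 cpm (median 166.4) to 31.0 to 97.3 cpm (median 66.2), again without overlap, with a log2 fold change of -1.39 (SE 0.123, adjusted p = 8.28e-11). In bulk epidermis, fewer cells that express a gene and less RNA per cell cannot be told apart.

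Il33 encodes IL-33, a nuclear alarmin of barrier cells. It had 33.3 to 71.5 cpm (median 47.9) in WT Control mice and 62.5 to 175.9 cpm (median 111.8) after UV, a 2.41-fold rise (log2 1.27, SE 0.256, adjusted p = 7.54e-05). In KO mice it had 24.2 to 108.4 cpm (median 45.8) without UV and 71.8 to 166.2 cpm (median 123.3) after UV, a 2.46-fold rise (log2 1.30, SE 0.256, adjusted p = 5.79e-05). The groups overlapped in both genotypes, in KO mice through the Control male 44M with 108.4 cpm.

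The upstream sequences of the 2 genes with the largest rise and of the gene with the largest fall are shown because their changes carry the results, with that of Il1a for its contrast with Il1b. RefSeq held 12 starts for 8 of the 9 members, none for Il1f6. The 250 bases before each start (GRCm38, 5′ to 3′, strand of the gene) are printed in lower case with matches to 5 motifs in capitals. The motif searched for AP-1, on both strands like the others, was TGANTCA. For the core of a kappaB site it was GGGNNTTNC. For a STAT site it was TTCNNNGAA. For the half-site bound by nuclear receptors it was AGGTCA. For the TATA box it was TATAAA.
Il1b, chr2:129371140-129371389, minus strand: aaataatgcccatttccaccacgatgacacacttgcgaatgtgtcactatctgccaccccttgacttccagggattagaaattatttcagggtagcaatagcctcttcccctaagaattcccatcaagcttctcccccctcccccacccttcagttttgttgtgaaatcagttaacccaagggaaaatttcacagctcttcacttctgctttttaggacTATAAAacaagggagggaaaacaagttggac
Il1a, chr2:129309973-129310222, minus strand: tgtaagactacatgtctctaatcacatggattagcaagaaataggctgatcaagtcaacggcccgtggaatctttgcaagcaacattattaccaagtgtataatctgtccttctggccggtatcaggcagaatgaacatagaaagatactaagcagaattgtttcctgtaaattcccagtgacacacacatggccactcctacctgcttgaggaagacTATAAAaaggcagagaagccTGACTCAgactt
Il33 first start, chr19:29924863-29925112, plus strand: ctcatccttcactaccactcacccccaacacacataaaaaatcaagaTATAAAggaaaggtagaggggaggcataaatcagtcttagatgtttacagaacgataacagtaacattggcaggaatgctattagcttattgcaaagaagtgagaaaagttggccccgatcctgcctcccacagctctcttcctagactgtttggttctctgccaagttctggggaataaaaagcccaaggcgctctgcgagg
Il33 second start, chr19:29945540-29945789, plus strand: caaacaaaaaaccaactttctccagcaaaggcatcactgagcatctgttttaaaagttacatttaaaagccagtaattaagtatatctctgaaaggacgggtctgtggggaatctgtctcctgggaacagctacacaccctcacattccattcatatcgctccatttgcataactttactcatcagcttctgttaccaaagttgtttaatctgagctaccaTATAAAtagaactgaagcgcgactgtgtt
Il18, chr9:50554450-50554699, plus strand: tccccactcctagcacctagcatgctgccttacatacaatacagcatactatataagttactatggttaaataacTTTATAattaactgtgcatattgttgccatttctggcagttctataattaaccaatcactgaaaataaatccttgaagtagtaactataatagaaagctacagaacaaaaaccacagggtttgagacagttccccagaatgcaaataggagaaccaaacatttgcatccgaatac
TATAAA occurred 31 bases before the start of Il1b, 32 before that of Il1a and 29 before the second start of Il33. It also occurred 203 bases before the first start of Il33 and, on the other strand, 175 before that of Il18. Anywhere in the 250 bases, it occurred in 12.4% of the 32851 promoters searched. Matches at a given distance from the start were not counted over all promoters. TGANTCA occurred in the windows of Il1a, Il1rn and Il1f8, against 6.75% of all promoters. GGGNNTTNC occurred before 1 start of Il1rn (13% of all promoters), TTCNNNGAA before 1 start of Il1f5 and that of Il1f9 (7.02%) and AGGTCA before 1 start of Il1rn and that of Il1f9 (14%). The windows of Il1b, Il18 and Il33 held none of the motifs other than TATAAA, which says only that these letters are not in these windows.

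Among the IL-36 genes, the antagonist Il1f5 fell from 849.3 to 1205 cpm (median 1009) to 573 to 1050 cpm (median 688.3) in WT epidermis, with a log2 fold change of -0.48 (SE 0.118, adjusted p = 0.000696). In KO epidermis it went from 923 to 1607 cpm (median 1231) to 518.5 to 1196 cpm (median 737.4), with a log2 fold change of -0.75 (SE 0.119, adjusted p = 2.86e-06). The agonist Il1f6 had 78.4 to 99.9 cpm (median 87.9) in WT Control mice and 31.5 to 88.5 cpm (median 48.6) after UV. Only female 51F, at 88.5 cpm, lay within the Control range, and the log2 fold change was -0.75 (SE 0.165, adjusted p = 0.000197). In KO mice Il1f6 went from 79.2 to 121.2 cpm (median 107.2) to 24.4 to 73.8 cpm (median 48.5), without overlap, with a log2 fold change of -1.08 (SE 0.166, adjusted p = 1.59e-06).

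Of the other agonists, Il1f8 was called lower in KO but not in WT epidermis, and Il1f9 in neither. Il1f8 had 141.6 to 196.2 cpm (median 165.0) in WT Control and 124.8 to 228.9 cpm (median 161.2) in WT UV mice, with a log2 fold change of 0.01 (SE 0.108, adjusted p = 0.926). In KO mice it had 147.7 to 228.7 cpm (median 199.1) without UV and 82.3 to 237.6 cpm (median 159.5) after UV, with a log2 fold change of -0.34 (SE 0.108, adjusted p = 0.00648), and -0.26 without mouse 54F (adjusted p = 0.0252). Il1f9 rose in WT epidermis from 225.3 to 374.7 cpm (median 276.1) to 298 to 624.3 cpm (median 350.4), with a log2 fold change of 0.46 (SE 0.132, adjusted p = 0.00297). In KO mice Il1f9 had 265.8 to 496.3 cpm (median 355.1) and 253.7 to 485.5 cpm (median 365.3), with a log2 fold change of 0.11 (95% interval -0.16 to 0.37, adjusted p = 0.487). Differences among the IL-36 genes in one genotype were not tested against each other.

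**Figure D2:**
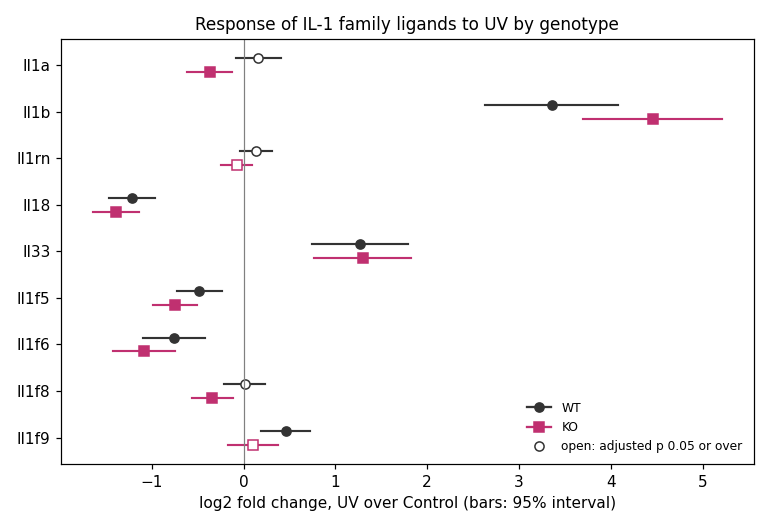
Log2 fold change of each member after UV against Control, with 95% intervals from edgeR, in WT (dark grey circles) and KO mice (magenta squares). Filled symbols passed an adjusted p under 0.05. Il1b at 3.36 and 4.46 stands far to the right of Il33 at 1.27 and 1.30, and Il18 lies lowest at -1.21 and -1.39.

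Agonists were compared with their antagonists as the log2 ratio of reads in each mouse, in which library size cancels but transcript length does not. For each 1000 Il1rn reads, WT Control mice had 3.83 to 11.8 Il1b reads and WT UV mice 32.6 to 137 Il1b reads. KO mice had 1.29 to 10.2 Il1b reads without UV and 42.7 to 325.6 after it, or up to 200.9 without mouse 54F. The groups did not overlap in either genotype, and the mean log2 ratio rose by 3.20 in WT and 4.51 in KO mice. The ratio of Il1a to Il1rn differed by 0.01 in WT and -0.30 in KO mice, where the pooled SD was 0.244 and 0.392.

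Against Il1f5, the IL-36 agonists moved apart. The mean log2 ratio of Il1f9 to Il1f5 rose by 0.94 in WT epidermis, from 243 to 339.2 Il1f9 reads per 1000 Il1f5 reads to 426.9 to 638.8 reads, with no overlap. In KO mice it rose by 0.85 and the groups overlapped. The ratio of Il1f8 to Il1f5 rose by 0.50 in WT mice without overlap and by 0.39 in KO mice with overlap, whereas the ratio of Il1f6 to Il1f5 differed by -0.31 and -0.36, with overlap in both. Il18bp rose from 3.59 to 5.48 cpm in WT and from 3.68 to 5.41 cpm in KO mice. The mean log2 ratio of Il18 to Il18bp fell by 1.83 in WT and by 1.91 in KO mice without overlap. Without mouse 54F the differences in KO mice were 0.77 for Il1f9, 0.45 for Il1f8 and -0.295 for Il1f6 against Il1f5, -1.77 for Il18 against Il18bp and -0.235 for Il1a against Il1rn. These ratios were given no test, since the genes were chosen with earlier results known.

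**Figure D3:**
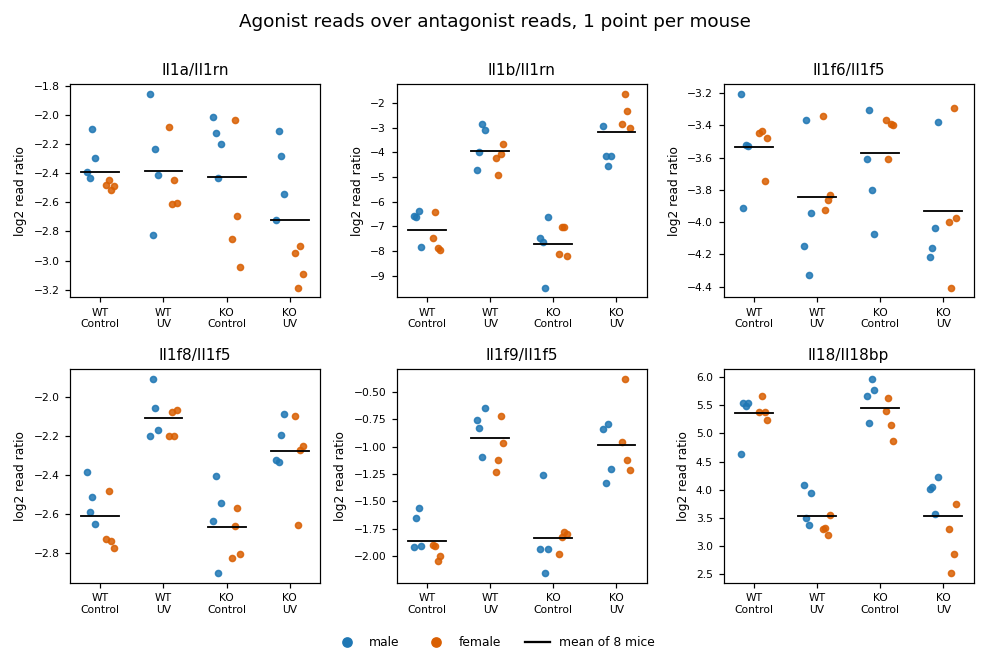
Log2 ratio of agonist to antagonist reads in each mouse (1 point per mouse, males in blue, females in orange, black bars for means of 8 mice) for 6 pairs, each on its own scale. The Il1b to Il1rn ratio rises by 3.20 in WT and 4.51 in KO mice, and the Il18 to Il18bp ratio falls by 1.83 and 1.91.

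Between genotypes no member passed the threshold. Without UV, 0 of 9 members were called by edgeR, as by DESeq2 and limma-trend, where 0.206% of all genes were called. An unadjusted p under 0.05 (edgeR) was found for 2 members and for 1324 of the 15546 genes. After UV, 0 members were called, again by all 3 tools, where 3.31% of all genes were called, or 1.38% without mouse 54F. An unadjusted p under 0.05 (edgeR) was then found for 2 members and for 3121 of the 15546 genes. Those 2 members were Il1a, with a KO minus WT log2 difference of -0.35 (SE 0.12, adjusted p = 0.0984), and Il1b, with 0.77 (SE 0.313, adjusted p = 0.162). The Il1b difference ranged from 0.46 without the KO male 58M to 0.92 without the WT female 77F, and was 0.61 without mouse 54F (adjusted p = 0.31). The test of the difference in UV response itself called 0 members, with 3 at an unadjusted p under 0.05, where 0.765% of all genes were called. For Il1b the response in KO exceeded that in WT mice by 1.10 on the log2 scale (SE 0.468, 95% interval 0.14 to 2.06, adjusted p = 0.192). For Il1a it differed by -0.53 (SE 0.17, adjusted p = 0.105) and for Il1f8 by -0.35 (SE 0.153, adjusted p = 0.2). DESeq2 called 1 member in this comparison, Il1a at -0.57 (adjusted p = 0.0365), and so did edgeR without the KO male 59M after UV, with -0.62 for Il1a. The loss of that mouse also called Il1a in the genotype comparison after UV, with -0.43.

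The sexes were also looked at apart. After UV, Il1b had 9.97 to 25.4 cpm in WT females and 39.0 to 86.3 cpm in KO females, without overlap, and 10.8 to 36.2 cpm in WT males and 11.9 to 42.96 cpm in KO males, with overlap. Fitted alone, females gave a log2 difference of 1.70 for Il1b (adjusted p = 0.0205) and males -0.24 (adjusted p = 0.958). Females alone also gave -0.67 for Il1a (adjusted p = 0.0363). Without mouse 54F neither was called in females alone, with 1.43 for Il1b (adjusted p = 0.0524) and -0.59 for Il1a (adjusted p = 0.0953). In females after UV, the sums of keratinocyte, T cell, neutrophil, mast cell and skeletal muscle markers overlapped between KO and WT mice. Markers of other cells were higher in these KO females after UV than in the WT females, without overlap. Those of monocytes and macrophages summed to 177.8 to 880.8 against 114.2 to 143.6 cpm. Those of Langerhans cells summed to 346.9 to 678.7 against 213.9 to 247.8 cpm, and those of endothelium to 10.6 to 54.6 against 2.08 to 5.77 cpm. Fibroblast markers summed to 6 to 1982 cpm, or at most 9.48 cpm without mouse 54F, against 1.73 to 3.99 cpm. The part of these cells in the Il1b values was not tested. Whether the sexes differ was tested as sex by UV, the female minus the male response. It called 0 members and 0% of all genes in WT epidermis, with 0 members and 419 of the 15546 genes at an unadjusted p under 0.05. In KO epidermis it called 0 members and 0% of all genes, with 1 member and 1482 of the 15546 genes at an unadjusted p under 0.05. That member was Il1b at 1.45 (SE 0.666, adjusted p = 0.494) and 1.12 without mouse 54F. DESeq2 and limma-trend called 0 members in either comparison. The difference between sexes in the genotype effect was not tested.

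Markers of monocytes and macrophages moved with Il1b. The sum of 8 such markers was 44.5 to 105.8 cpm in WT Control, 114.2 to 209.6 cpm in WT UV, 34.8 to 110.2 cpm in KO Control and 118.1 to 880.8 cpm in KO UV mice, or 118 to 321 cpm without mouse 54F. In WT epidermis 5 of the 8 rose with UV (Cd68, Ccr2, Ly6c2, Fcgr1 and Cd14) and Csf1r fell, and in KO epidermis 6 rose and none fell. Over all genes, 34.5% rose and 36.5% fell in WT and 37.3% rose and 33.5% fell in KO epidermis. Fcgr1 had at most 5 reads in any Control mouse. It thus passed the filter on low counts through UV mice alone, and a rise was likely from the filter itself. Of 8 neutrophil markers, Ly6g, Stfa2l1, Camp and Ngp were below the filter on low counts in all mice, with at most 12 reads in a mouse. Csf3r and Mmp8 rose in both genotypes, and in KO epidermis Retnlg rose and Cxcr2 fell. The 8 neutrophil markers summed to 18.5 to 62.3 cpm without UV and 21.9 to 51.6 cpm after UV over both genotypes. Once the 8 group means were subtracted, log2 Il1b correlated over the 32 mice at r = 0.508 with the summed monocyte and macrophage markers and at r = 0.059 with the neutrophil markers, which share libraries and are given as a description. The part of these cells in the rise of Il1b was not tested.

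**Figure D4:**
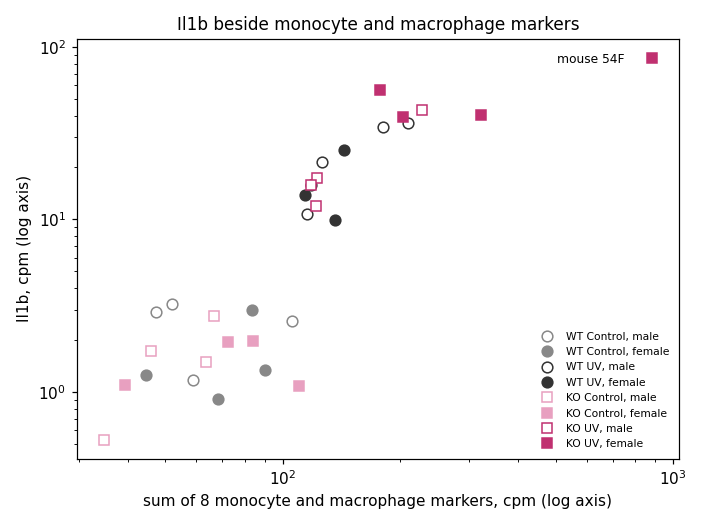
Il1b in cpm against the sum of 8 monocyte and macrophage markers in cpm, both on log axes, with 1 point per mouse, circles for WT, squares for KO, open for males and filled for females. The UV mice lie at or above 114.2 cpm of markers and 9.97 cpm of Il1b, and mouse 54F has the highest value of both, at 880.8 and 86.3 cpm.

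Markers of other cells also changed with UV. Of all genes, 34.5% rose and 36.5% fell in WT and 37.3% rose and 33.5% fell in KO epidermis. All 6 T cell markers fell with UV in both genotypes, as did the members Il18, Il1f5 and Il1f6. Within groups the summed T cell markers correlated at r = 0.333 with Il18, 0.0221 with Il1f5 and -0.137 with Il1f6 over the 32 mice. Without mouse 54F, 5 of the 6 T cell markers fell in KO epidermis. Of 6 Langerhans cell markers, 5 fell in WT epidermis, and 4 fell and Mfge8 rose in KO epidermis. Of the 7 keratinocyte markers 5 fell and Krt14 rose in WT epidermis, and 4 fell and 2 rose in KO epidermis. Without mouse 54F, Trp63 was also called higher in WT epidermis. Of 6 fibroblast markers, 3 fell with UV in WT epidermis and 0 were called in KO epidermis. Without mouse 54F, 5 fell in WT and 3 fell in KO epidermis. All 6 fibroblast markers were called higher in KO than in WT mice after UV, and none without mouse 54F. Their sum in males after UV, which leaves that mouse aside, was 10.6 to 30 cpm in KO and 4.67 to 8.44 cpm in WT mice. The sums thus did not overlap between genotypes in males, nor in females as given above. No member was called in the genotype comparison after UV with or without mouse 54F. Of 4 endothelial markers tested, 3 rose in each genotype, or 2 in KO epidermis without mouse 54F. Of 4 mast cell markers none was called in WT and Cma1 was called higher in KO epidermis, a call that rests on mouse 54F: it held 18.8 cpm of these markers against at most 1.25 cpm in the other KO UV mice, and without it 1 mast cell marker could be tested and 0 were called. The 4 skeletal muscle markers were not called and reached 2368 cpm in a KO Control and 2117 cpm in a WT UV mouse. Which cells carry the members was not tested.

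Of 9 receptor, decoy and binding protein genes, 1 rose and 4 fell in WT epidermis and 2 rose and 5 fell in KO epidermis. Over all genes, 34.5% and 37.3% rose and 36.5% and 33.5% fell in WT and KO epidermis. Il1r1, the signalling IL-1 receptor, fell from a mean of 53.3 to 12.1 cpm in WT (log2 -2.13, SE 0.126, adjusted p = 1.88e-14) and from 49.0 to 12.0 cpm in KO mice (log2 -2.06, SE 0.125, adjusted p = 4.4e-14). The decoy receptor gene Il1r2 fell by 2.40 and by 1.95 on the log2 scale, and the shared co-receptor gene Il1rap by 1.22 and by 0.99. Sigirr, an inhibitory receptor of the family, fell in both genotypes. The IL-36 receptor gene Il1rl2 had means of 260 and 235 cpm in WT mice (log2 -0.14, adjusted p = 0.0524) and fell in KO mice from 263 to 214 cpm (log2 -0.29, adjusted p = 0.000256). Il1rl1, the IL-33 receptor, stayed under 0.6 cpm in the mean of each genotype and treatment and was not called.

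Genes of processing and release moved in both directions. Of 10 tested, 2 rose and 5 fell in WT and 3 rose and 3 fell in KO epidermis, and 3 rose and 5 fell of 9 tested in KO without mouse 54F. Over all genes, 34.5% rose and 36.5% fell in WT and 37.3% rose and 33.5% fell in KO epidermis. Casp1, which encodes the enzyme that cleaves pro-IL-1β and pro-IL-18, fell from a mean of 58.5 to 26.6 cpm in WT and from 64.7 to 27.4 cpm in KO mice (log2 -1.13 and -1.23). The inflammasome adaptor gene Pycard fell from 209 to 64.9 cpm and from 213 to 71.1 cpm (log2 -1.68 and -1.59). Nlrp3, an inflammasome sensor, rose from 0.562 to 2.92 cpm and from 0.494 to 4.97 cpm, and Gsdmd, which forms the pore for release, from 0.769 to 1.62 cpm and from 0.736 to 3.82 cpm. Of the other sensors, Nlrp1a fell from 1.63 to 0.0636 cpm in WT and from 1.22 to 0.139 cpm in KO mice. Nlrp1b and Aim2 fell in WT epidermis, from 1.19 to 0.226 cpm and from 1.93 to 1.21 cpm, and in KO mice had 1.08 and 0.851 cpm and 1.82 and 1.81 cpm, which were not called. A gene with a mean near or under 1 cpm could pass the filter on low counts through the mice of 1 treatment alone. This limits what the changes of Nlrp3, Gsdmd, Nlrp1a and Nlrp1b show. Without mouse 54F, Nlrp1b and Casp4 were also called lower in KO epidermis. Of 12 signalling genes, 6 rose and 4 fell in WT and 4 rose and 4 fell in KO epidermis, beside the same shares of all genes. Myd88, the adaptor of the receptors, had 84.3 and 220 cpm in WT and 96.7 and 200 cpm in KO mice.

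Genes known to respond to IL-1 and IL-36 rose in both genotypes. Of 16 listed, 12 could be tested and all 12 rose in both genotypes, with Cxcl5, Il6, Csf2 and Il17c below the filter on low counts. Of all genes, 34.5% rose in WT and 37.3% in KO epidermis. The filter kept a gene that reached 1 cpm in any mouse, so a gene rare in Control mice could pass through the UV mice alone. For such a gene a rise was likely from the filter itself, which limits what the 12 rises show. The neutrophil chemokine gene Cxcl1 went from 0.359 to 23.6 cpm in WT and from 0.328 to 22.5 cpm in KO mice, Ptgs2 from 1.87 to 58.2 and from 2.00 to 49.6 cpm, and Tnf from 3.27 to 15.6 and from 3.29 to 14.9 cpm. The median log2 fold change of the tested target genes was 4.48 in WT epidermis. No gene of these 4 lists was called between genotypes without UV, after UV or in the test of the UV response. The further ligand gene Il1f10 fell from 10.0 to 3.78 cpm in WT (log2 -1.39, SE 0.305, adjusted p = 0.000197) and from 11.5 to 3.50 cpm in KO mice (log2 -1.76, SE 0.309, adjusted p = 1.17e-05).

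**Figure D5:**
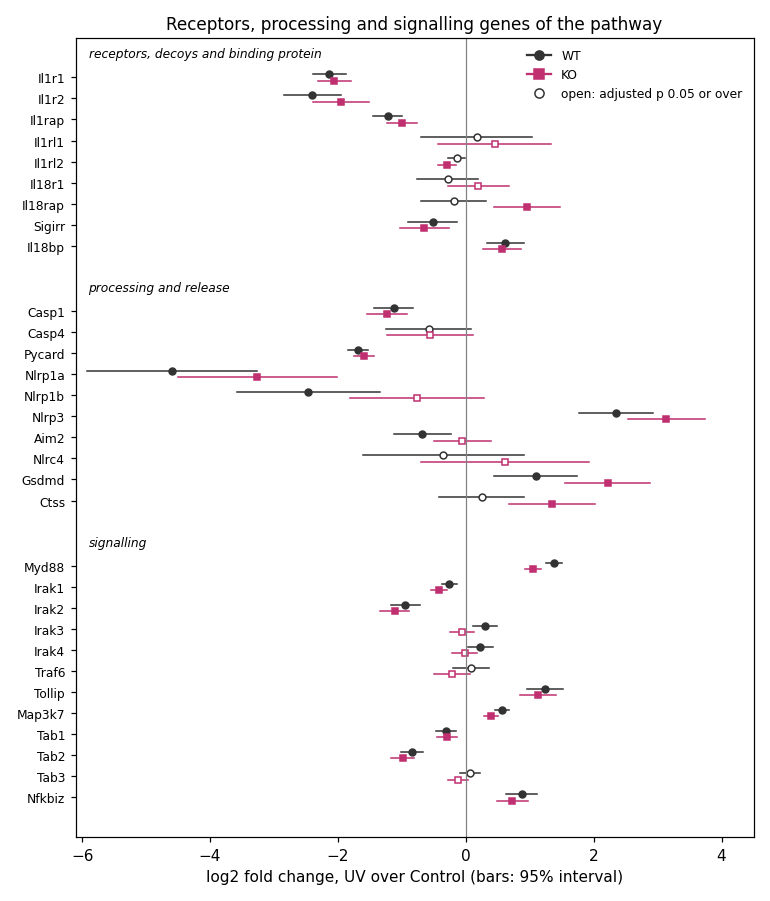
Log2 fold change after UV against Control with 95% intervals for the tested receptor, processing and signalling genes, in WT (dark grey circles) and KO mice (magenta squares), filled where the adjusted p was under 0.05. Il1r1, Il1r2 and Il1rap lie left of 0 in both genotypes, Pycard at -1.68 and -1.59, and Myd88 at 1.39 and 1.05.

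Within the groups the members varied partly together. After subtraction of the 8 group means, Il1f5 and Il1f8 correlated at r = 0.789 over the 32 mice, Il1a and Il1f5 at 0.662 and Il1a and Il1f8 at 0.642. Il1b did not go with them, at -0.397 with Il1f5 and -0.217 with Il1a. Of 13084 genes compared, the one most like Il1b was Adamts1 (r = 0.804), followed by Syk (0.752) and Parp14 (0.705). For Il33 it was Jak2 (0.854), which lies 612 kb from Il33 on chromosome 19. For Il1f5 it was Anxa9 (0.856), for Il1rn Elovl1 (0.817), for Il18 Nt5c3 (0.801), for Il1a Acp7 (0.797), for Il1f6 Gm15920 (0.742), for Il1f8 Fgf22 (0.824) and for Il1f9 Arid4a (0.811). All points share depth and library effects, and these values are descriptions.

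Several members share their locus with a gene on the other strand. Il1bos, which overlaps Il1b over 1243 bases, had means of 2.34 and 1.87 cpm in WT Control and UV mice and 2.64 and 1.78 cpm in KO mice, with no higher mean after UV in either genotype. Gm14023, which overlaps Il1a, had means of 1.06 to 3.39 cpm over the 4 genotype and treatment groups, and Bco2 and Tex12, which overlap Il18, had 0.879 to 2.9 cpm and at most 3 reads. The strand setting of the counting was not given in the sources used here, so reads of these pairs may not be told apart.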

How the data were processed

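Epidermal RNA of 32 mice was sequenced from stranded single-read mRNA libraries, 1 per mouse. The deposited values are whole-number read counts per gene, which the authors made by trimming reads (cutadapt 1.8), aligning them with STAR 2.5.3a and counting them with HTSeq 0.9.1; the submitters' processing notes name the build GRCm38. The strand setting of the counting was not given in the sources used here. RNA quality numbers in the labels ran from 6.4 to 8.4, and so reached below the range that the paper states for its RNA. Of 55401 gene identifiers, 55141 were named with GENCODE M21, and the rows naming no gene were left out: reads on no feature came to 6.80 to 9.75 percent of the sum of gene, no-feature and ambiguous reads, and those not aligned uniquely to 31.1 to 38.5 percent of the sum of all rows.

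The 15546 genes that reached 1 cpm in any mouse were fitted with edgeR 4.0.16 (R 4.3.3), with TMM scaling, 8 group means for sex, genotype and treatment, contrasts averaged over the sexes, and the quasi-likelihood test with Benjamini-Hochberg adjustment. Genes were called at an adjusted p under 0.05. Alternatives were RLE scaling, DESeq2 1.42.0, limma-trend (limma 3.58.1), other filters, sex as an additive term, each sex or genotype alone, and each mouse left out. Log2 read ratios used a pseudocount of 1. The fit was tested on simulated counts. The members and lists were chosen with earlier results of these data known, and the named genes were all members, the listed pathway and marker genes, Ppard, and the genes most correlated with each member. Mice are separate animals, and counting precision is limited by depth, 22919428 to 40653581 gene reads per mouse.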

Additional observations from a re-analysis of the deposited data

Results flagged for a closer look

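In 72 groups of 4 mice of 1 sex, genotype and treatment (9 members in 8 groups), 6 held a mouse whose gap to the nearest other mouse exceeded Dixon's 95% critical value for 4 samples. Chance flags about 1 in 20 groups. Il1a had 63.9 cpm in the KO female Control mouse 60F, above the others, and Il1f5 had 709 cpm in the KO female UV mouse 74F, above the others. Il1f6 had 79.2 cpm in the KO male Control mouse 67M, below the others. Il1f8 had 229 cpm in the WT male UV mouse 32M, above the others. Il1f9 had 496 cpm in the KO male Control mouse 44M, above the others, and 332 cpm in the KO male UV mouse 72M, below the others.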

How the results depend on the processing

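The calls of UV in Il1b, Il33, Il18 and Il1f6 kept their direction and their side of the threshold in both genotypes under every alternative run. Males alone called 3 members lower in KO epidermis, and lost Il1f5 in WT (-0.38, adjusted p = 0.0794) and Il1a (-0.30, adjusted p = 0.115) and Il1f8 (-0.18, adjusted p = 0.234) in KO epidermis. Females alone called 2 members between genotypes after UV, Il1a and Il1b, and 0 when mouse 54F was also left out, a choice made after seeing the data, and DESeq2 called 1 member, Il1a, in the test of genotype by UV. With each mouse left out, the members called ranged from 0 to 1 in both of these comparisons, with Il1a called without the KO male 59M, and from 3 to 4 for members higher in WT epidermis, with Il1rn called without the WT female 59F. The cause was not tested. The share of all genes called in these alternative fits is not given here. The counts of members called in them therefore cannot be set against it.

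Signs turned for differences that were not called. Il1f8 after UV in WT epidermis was -0.00131 by limma-trend and ranged from -0.049 to 0.113 with a mouse left out. Without UV, the genotype difference was -0.0146 for Il18 and -0.0125 for Il1f8 in females alone, and -0.0205 for Il33 by limma-trend (-0.201 to 0.207 with a mouse left out). After UV, males alone gave -0.237 for Il1b, 0.253 for Il18, -0.0185 for Il33, 0.271 for Il1f5, 0.264 for Il1f6, 0.126 for Il1f8 and 0.029 for Il1f9. Females alone without mouse 54F gave -0.148 for Il1f9 after UV in KO epidermis, -0.0179 for Il18 and -0.0146 for Il1f8 between genotypes without UV, and -0.0179 for Il1rn after UV, and lost the call of Il1a after UV in KO epidermis (-0.384, adjusted p = 0.0898). Il1rn was -0.0205 with RLE scaling, -0.0206 by DESeq2, -0.0361 with filterByExpr, -0.0426 with no filter and -0.0648 in females alone. With a mouse left out, the difference after UV ranged from -0.0701 to 0.0289 for Il1rn, -0.155 to 0.0159 for Il18, -0.118 to 0.0706 for Il1f5, -0.227 to 0.0425 for Il1f6 and -0.168 to 0.0247 for Il1f9. For genotype by UV, Il33 was -0.00545 with RLE scaling, -0.00487 by DESeq2, -0.00433 with filterByExpr, -0.0134 with no filter and -0.0545 in males alone, and ranged from -0.127 to 0.315 with a mouse left out. No paired analysis was possible because the labels number the mice and do not link mice across groups.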
